A study of Mus musculus with 2 samples.

Results

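The renin-angiotensin system genes were 9 listed genes, Agt, Ren1, Ace, Enpep, Agtr1a, Agtr1b, Agtr2, Mas1 and Atp6ap2, picked by gene name out of 55536 annotated genes, and all 9 were found. They were measured by total RNA-seq in the adrenal gland of male B6Cast F1 mice (strain B6CASTF1/J, a hybrid of the C57BL/6J and CAST/EiJ strains) at postnatal day 10. The study held 1 group of 2 replicates with no treatment and no control, and 300 ng of RNA with added ERCC spike-in RNAs went into each library. Replicate 2 had 38984236 expected counts and replicate 1 had 36982665, of which 38641442 in replicate 2 and 36652695 in replicate 1 lay on annotated genes. The labels number the animals 4 for replicate 2 and 3 for replicate 1, but both library descriptions carry animal number 3 and both samples carry the same donor identifier. A difference between the libraries can therefore not be assigned to different animals, and no test between conditions was possible. Where a fold is given it is replicate 2 over replicate 1 in TMM-scaled counts, with a 95% exact (Clopper-Pearson) interval that covers counting error only.

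In the renin-angiotensin system, renin cuts angiotensinogen to angiotensin I, and angiotensin-converting enzyme turns that into angiotensin II. Angiotensin II acts on the AT1 and AT2 receptors, and in the adrenal cortex its action through AT1 on the zona glomerulosa, the outermost zone, drives aldosterone synthesis. Angiotensinogen in blood comes mainly from the liver and renin mainly from the kidney, so an adrenal gland can receive the peptide from the circulation as well as carry the genes itself. Mice have a pair of AT1 genes, Agtr1a and Agtr1b, where humans have a single one.

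The adrenal markers were present in both libraries. All 7 general cortex markers, all 8 zona glomerulosa markers and all 6 chromaffin markers were at 1 TPM or more in both, led by Hsd3b1 and Star for the cortex and by Chga and Chgb for the medulla. TPM is an abundance corrected for transcript length, so it can be compared between genes. Markers of other tissues were present as well. The 8 liver markers summed to 11732 TPM in replicate 2 against 3743 TPM in replicate 1, and the 5 brown fat markers summed to 3044 TPM in replicate 2 against 3450 TPM in replicate 1. In the liver, granulocyte and skeletal muscle lists every marker was past 2-fold in favour of replicate 2, where 6.74% of all genes tested were. The median folds of these lists were 3.38, 3.55 and 2.61. In bulk tissue, fewer cells of a type and less RNA per cell cannot be told apart.

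Among the 9 genes, the ligand precursor and the main AT1 receptor gene stood at the top and the Mas receptor gene at the bottom. By mean level the order was Agt, Agtr1a, Agtr2, Atp6ap2, Ace, Enpep, Agtr1b, Ren1 and Mas1. All but Mas1, 8 of 9, were at 1 TPM or more in both libraries, as were 56.7% of the 22015 nuclear protein-coding genes. Not all neighbours in the order were apart by more than their spread. Agt and Agtr1a changed places between the libraries, Enpep and Agtr1b did too, and the ranges of Agtr1b and Ren1 overlapped. The lowest Agt value was above the highest Agtr2 value, but the means of Agt and Agtr2 differed by less than the SD of Agt. Agtr2 and Atp6ap2, Atp6ap2 and Ace, Ace and Enpep, and Ren1 and Mas1 had ranges that did not overlap. A second quantification by the authors, made from the reads without alignments, put Agtr2 below Atp6ap2 in both libraries. It also set the levels of Ren1, Ace and Enpep 1.63, 1.54 and 1.51 times as high.

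**Figure D1:**
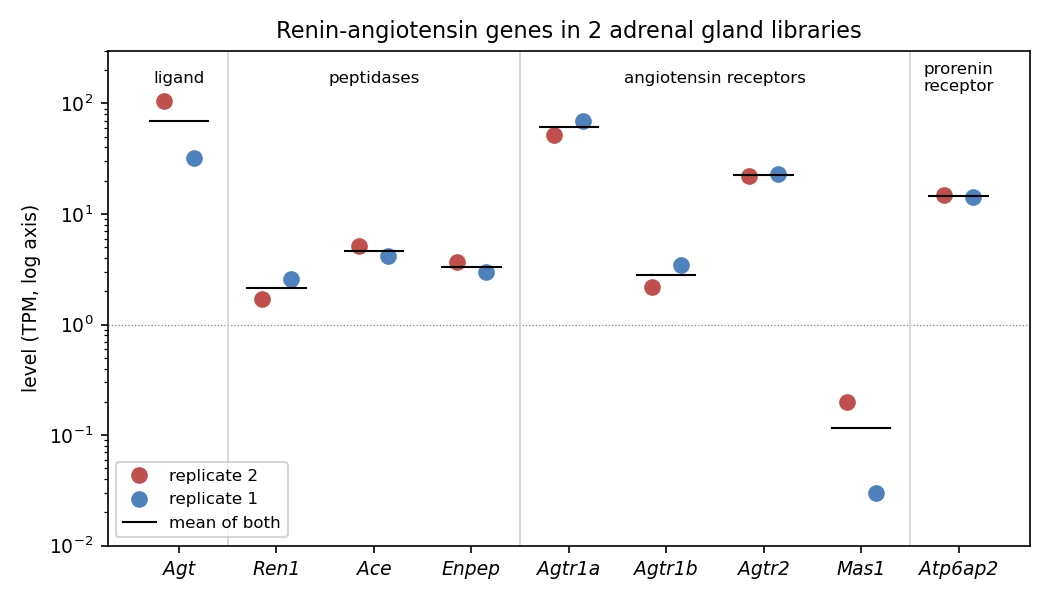
Level of each renin-angiotensin gene in TPM on a log axis, with replicate 2 in red, replicate 1 in blue and the mean of both as a bar. Agt is the gene with the widest gap between libraries among the 8 genes at 1 TPM or more, 106 TPM in replicate 2 against 31.96 TPM in replicate 1, while Atp6ap2 and Agtr2 nearly coincide.

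Agt (ENSMUSG00000031980.9, chr8:124556534-124569706, minus strand, GRCm38) encodes angiotensinogen, the precursor of all angiotensin peptides. Its level was 106 TPM in replicate 2 against 31.96 TPM in replicate 1, a mean of 69.1 ± 52.6 TPM (SD, n = 2). Agt thus ranked 519 in replicate 2 and 1947 in replicate 1 among protein-coding genes. Its counts were 7074 in replicate 2 and 2097 in replicate 1, a 3.38-fold difference (interval 3.22 to 3.55). The authors' deposited credibility intervals, 102 to 107 TPM in replicate 2 and 30.1 to 32.7 TPM in replicate 1, did not overlap. Ren1 (ENSMUSG00000070645.5, chr1:133350510-133360325, plus strand) encodes renin, the aspartyl protease that makes the first cut. The sequences just before the starts of both genes are shown because they hold the same letters, TATAAA, the common form of the TATA box. They are the 60 bases before the RefSeq start, 5′ to 3′ on the strand of the gene in GRCm38.p6, chr8:124569707-124569766 (minus strand) for Agt and chr1:133350614-133350673 (plus strand) for Ren1, with these letters in capitals.
Agt: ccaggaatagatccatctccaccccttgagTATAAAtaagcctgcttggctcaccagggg
Ren1: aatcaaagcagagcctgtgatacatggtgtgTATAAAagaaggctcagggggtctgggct
The letters TATAAA begin 30 bases before the start of Agt and 29 before that of Ren1. They lie on the sense strand within 60 bases of the start in 2.87% of all 32851 RefSeq windows. Over the whole 250 bases before the start, 5 of 9 windows of these genes held them on either strand, in Agt, Ren1, Agtr1b, Ace and Enpep, against 12.4% of all windows. The 9 windows belong to 8 genes, since Ace has a pair and Agtr1a has none in the table. A match is a description of the letters only.

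The difference in Agt was accompanied by one of the same size in liver markers. All 8 liver markers were higher in replicate 2, by 2.85 to 3.86-fold around a median of 3.38, and the fold of Agt was 3.38. Of all genes tested, 50.6% were higher in replicate 2, and 6.74% by more than 2-fold. The marker lists were chosen with earlier results of these data known, so the likeness is a description only. A shift towards replicate 2 was not particular to liver. The 5 granulocyte markers were all higher in replicate 2 with a median fold of 3.55, and the 5 skeletal muscle markers with a median fold of 2.61. Alb, which encodes serum albumin, was at 6173 TPM in replicate 2 against 2046 TPM in replicate 1, and Ahsg, which encodes fetuin-A, was at 2421 TPM in replicate 2 against 720 TPM in replicate 1. Within a library the ratio of Agt to Ahsg hardly moved, at 0.0439 in replicate 2 and 0.0444 in replicate 1. Agt stood at 0.848 times F2, the prothrombin gene, in replicate 2 and 0.837 times in replicate 1. Against Alb it was 0.0172 in replicate 2 and 0.0156 in replicate 1. Against Fgb, a fibrinogen chain gene, it was 0.898 in replicate 2 and 1.03 in replicate 1. F2 and Fgb were added to Ahsg and Alb after their values were seen. Adipocytes are also known to make angiotensinogen, and their markers had a median fold of 1.01. The adipocyte list summed to 2605 TPM in replicate 2 against 2584 TPM in replicate 1. The part of liver, adipocyte or any other RNA in the Agt level was not tested.

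Ren1 stood near the lower end, at 1.71 TPM in replicate 2 against 2.58 TPM in replicate 1 (2.15 ± 0.62 TPM, SD, n = 2). It rested on 95 counts in replicate 2 and 137 in replicate 1, a fold of 0.694 (interval 0.529 to 0.908). The authors' deposited intervals, 1.46 to 3.32 TPM in replicate 2 and 2.22 to 4.51 TPM in replicate 1, overlapped. Renin is made in the juxtaglomerular cells of the kidney. Of 8 kidney markers 5 had no count in either library, among them Umod and Slc34a1, and the list summed to 0.52 TPM in replicate 2 against 0.83 TPM in replicate 1. The 2 kidney markers with the highest level were Aqp2, a collecting duct water channel with 22 counts in replicate 2 and 38 in replicate 1, and Slc12a3, a distal tubule salt transporter with 4 counts in replicate 2 and 5 in replicate 1. The Aqp2 fold of 0.579 had an interval of 0.326 to 1.005 that included no difference, and the part of kidney RNA in the Ren1 level was not tested. Some mouse strains carry a further renin gene, Ren2, but no gene of that name is in the annotation, so reads of such a copy could only have counted for Ren1 or not at all.

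Ace (ENSMUSG00000020681.14, chr11:105967945-105989964, plus strand) encodes angiotensin-converting enzyme, a peptidase on the surface of endothelium. Its level was 5.12 TPM in replicate 2 against 4.17 TPM in replicate 1 (4.65 ± 0.67 TPM, SD, n = 2). The counts were 865 in replicate 2 and 705 in replicate 1, a fold of 1.23 (interval 1.11 to 1.36). The 6 endothelial markers summed to 245 TPM in replicate 2 against 249 TPM in replicate 1. Their median fold was 1.02, so Ace was slightly higher in replicate 2 where this median was near 1. The single markers ran from Kdr, named after its values were seen, at 0.900 (interval 0.871 to 0.931) to Egfl7 at 1.08 (interval 1.02 to 1.15). Ace has a somatic form and a shorter form that starts inside the gene and is known from male germ cells. The 60 bases before each of the RefSeq starts show how the starts differ, at chr11:105967888-105967947 for the somatic form and chr11:105975129-105975188 for the internal start (plus strand, GRCm38.p6). Capitals mark TTTATA, which is TATAAA read on the other strand.
Ace: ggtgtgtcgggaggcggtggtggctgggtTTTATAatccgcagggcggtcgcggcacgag
Ace internal start: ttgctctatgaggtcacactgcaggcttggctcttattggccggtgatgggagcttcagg
Most of the gene's level lay on the somatic transcript. The 4906-base Ace-201 was at 4.08 TPM in replicate 2 against 3.65 TPM in replicate 1. Ace-203, a coding transcript of 3649 bases, was at 1.04 TPM in replicate 2 against 0.41 TPM in replicate 1. In the second quantification Ace-203 had 240 estimated counts in replicate 2 and 67.9 in replicate 1. Ace-201 there had 679 in replicate 2 and 674 in replicate 1. Ace-202, the 2418-base transcript of the internal start, had 0 counts in replicate 2 and 8.84 expected counts in replicate 1, but 2.18 in replicate 2 and 0 in replicate 1 in the second quantification. The 4 germ cell markers, among them Prm1 and Tnp1, were all at 0 counts. The antisense gene Gm11651 overlaps Ace and had no count in either library.

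Enpep (ENSMUSG00000028024.14, chr3:129269175-129332720, minus strand) encodes aminopeptidase A, which trims angiotensin II to angiotensin III. It was at 3.67 TPM in replicate 2 against 3.00 TPM in replicate 1 (3.34 ± 0.47 TPM, SD, n = 2). With 446 counts in replicate 2 and 394 in replicate 1 the fold was 1.13, and its interval, 0.987 to 1.30, included no difference. The ratio of Enpep to Ace was 0.717 in replicate 2 and 0.719 in replicate 1, while in the second quantification its log2 was −0.56 in replicate 2 and −0.44 in replicate 1. Part of Enpep lay on transcripts with a retained intron, which total RNA can hold. Enpep-203, the longer of these, took 1.02 TPM in replicate 2 against 0.74 TPM in replicate 1, beside 2.38 TPM in replicate 2 against 2.26 TPM in replicate 1 for the full coding transcript, Enpep-201 in the annotation.

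Agtr1a (ENSMUSG00000049115.15, chr13:30336441-30382867, plus strand) encodes the main AT1 receptor of the mouse, a Gq-coupled receptor, and Agtr1b (ENSMUSG00000054988.9, chr3:20314473-20367177, minus strand) its paralog. The 2 coding sequences are 1080 bases each and differ at 99 of them (90.8% identity), so the assignment of reads between them is a limit on both values. The stretch of 90 coding bases with the most differences, 20, is bases 972 to 1061, shown here 5′ to 3′ on the strand of the gene (GRCm38, chr13:30381925-30382014 on the plus strand and chr3:20315380-20315469 on the minus strand), with the bases that differ in capitals.
Agtr1a: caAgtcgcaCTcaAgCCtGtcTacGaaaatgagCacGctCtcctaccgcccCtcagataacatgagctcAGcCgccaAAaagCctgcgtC
Agtr1b: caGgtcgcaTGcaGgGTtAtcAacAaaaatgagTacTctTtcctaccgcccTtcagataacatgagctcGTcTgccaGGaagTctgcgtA
The longest stretch with no difference is 66 bases. Of all 50-base windows of the main Agtr1b transcript, 1.57% also occur in Agtr1a transcripts, and of all 100-base windows none, 0 of 2048.

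Agtr1a was far above Agtr1b in both libraries. Agtr1a was at 52.4 TPM in replicate 2 against 69.4 TPM in replicate 1 (60.9 ± 12.0 TPM, SD, n = 2). Agtr1b was at 2.18 TPM in replicate 2 against 3.44 TPM in replicate 1 (2.81 ± 0.89 TPM, SD, n = 2). Agtr1a thus stood 24.01-fold above its paralog in replicate 2 and 20.2-fold in replicate 1, and Agtr1b made up 4.00% of the AT1 TPM in replicate 2 and 4.73% in replicate 1. Agtr1a had 3778 counts in replicate 2 and 4563 in replicate 1, a fold of 0.829 (interval 0.794 to 0.865). Agtr1b, with 166 counts in replicate 2 and 258 in replicate 1, had an interval of 0.527 to 0.786. Both AT1 genes were thus lower in replicate 2 beyond counting error, though the share of all genes tested past counting error was not computed.

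Markers of the zona glomerulosa, the cortical zone that carries AT1 receptors, were mostly lower in replicate 2 too. Their folds ran from 0.543 to 0.968 with a median of 0.729, where 50.6% of all genes tested were higher in replicate 2. In 7 of 8 the fold was below 1 beyond counting error, and Lef1, named as the exception, had an interval of 0.834 to 1.12. The share of all genes tested past counting error was not computed. At high counts small folds pass it, as Star, a general cortex marker, did at 0.923 (interval 0.916 to 0.930). The zona glomerulosa markers summed to 190 TPM in replicate 2 against 283 TPM in replicate 1. Dab2, an endocytic adaptor, was at 101 TPM in replicate 2 against 141 TPM in replicate 1, and Cyp11b2, aldosterone synthase, at 38.7 TPM in replicate 2 against 72.4 TPM in replicate 1. Agtr1a was 0.518 times Dab2 in replicate 2 and 0.490 times in replicate 1, and 1.35 times Cyp11b2 in replicate 2 and 0.958 times in replicate 1. The other lists of cortex and medulla lay on the same side. Their median folds were 0.922 for the 7 general cortex markers, 0.899 for the 4 zona fasciculata markers and 0.829 for the 6 chromaffin markers. The pericyte and smooth muscle list lay on the other side, with a median fold of 1.23, 7 of 8 higher in replicate 2 and 1 lower. Capsule fibroblast markers had a median fold of 1.16, 4 higher and 2 lower. The part of any of these cells in the AT1 difference was not tested.

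**Figure D2:**
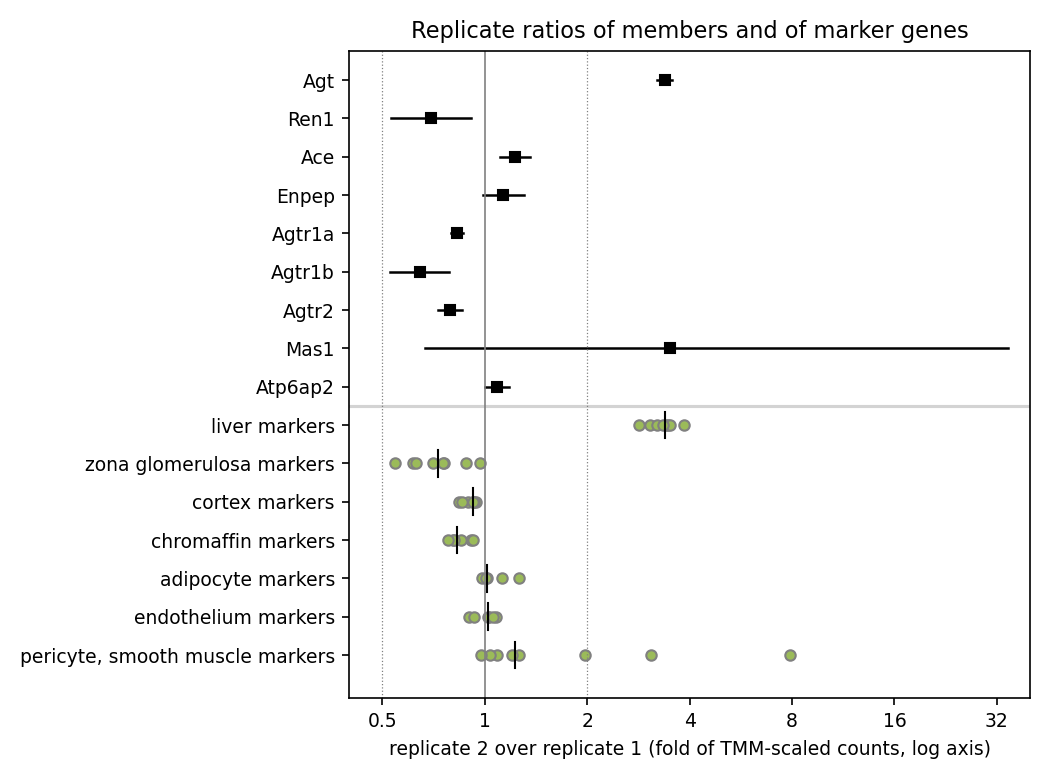
Ratio of replicate 2 over replicate 1 on a log axis, as squares with 95% counting intervals for the 9 genes above the grey line, and as 1 point a gene with the median as a bar for markers with a mean of at least 10 counts below it. Agt lies at 3.38 among the liver markers (2.85 to 3.86), and Agtr1a and Agtr1b lie below 1 as the zona glomerulosa, cortex and chromaffin markers do. The pericyte and smooth muscle markers have a median fold of 1.23. The granulocyte and skeletal muscle markers, with median folds of 3.55 and 2.61, are not drawn.

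Agtr2 (ENSMUSG00000068122.10, chrX:21484544-21489164, plus strand) encodes the AT2 receptor, which is known for its high levels in fetal tissues and in the adrenal medulla of the rat. It was at 22.1 TPM in replicate 2 against 23.2 TPM in replicate 1 (22.7 ± 0.8 TPM, SD, n = 2). In counts the libraries were further apart, 1089 in replicate 2 and 1379 in replicate 1, a fold of 0.790 (interval 0.729 to 0.856). In TPM the libraries were closer, since a 314-base noncoding transcript, Agtr2-202, held 13.9 TPM in replicate 2 against 12.2 TPM in replicate 1 on 111 counts in replicate 2 and 96.3 in replicate 1. The 3283-base coding transcript carried 978 counts in replicate 2 and 1283 in replicate 1. The second quantification gave Agtr2-202 no count and put the coding transcript at 11.8 TPM in replicate 2 against 16.3 TPM in replicate 1. The 6 chromaffin markers were all lower in replicate 2 too, with a median fold of 0.829. So were all markers of the zona glomerulosa, zona fasciculata and general cortex lists, with median folds of 0.729, 0.899 and 0.922. The pericyte and smooth muscle list had a median fold of 1.23 and the capsule fibroblast list one of 1.16. The part of any of these cells in the Agtr2 difference was not tested.

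A similar split touched Agtr1a. Its 2199-base coding transcript Agtr1a-201 was at 47.7 TPM in replicate 2 against 57.3 TPM in replicate 1 in the first quantification, and at 64.0 TPM in replicate 2 against 82.4 TPM in replicate 1 in the second. The 5 other transcripts, 436 to 501 bases long, summed to 4.71 TPM in replicate 2 against 12.1 TPM in replicate 1 in the first. The second gave them 50.4 TPM in replicate 2 against 69.3 TPM in replicate 1, on 207 and 257 estimated counts. The quantifications also chose different short transcripts. In the first, Agtr1a-204 held the most of them, 2.07 TPM in replicate 2 against 8.56 TPM in replicate 1. In the second, it was Agtr1a-206 with 47.9 TPM in replicate 2 against 65.8 TPM in replicate 1. Levels of such short transcripts turn on few reads, and the level of Agtr1a summed over transcripts was 2.19 times as high in the second quantification as in the first.

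**Figure D3:**
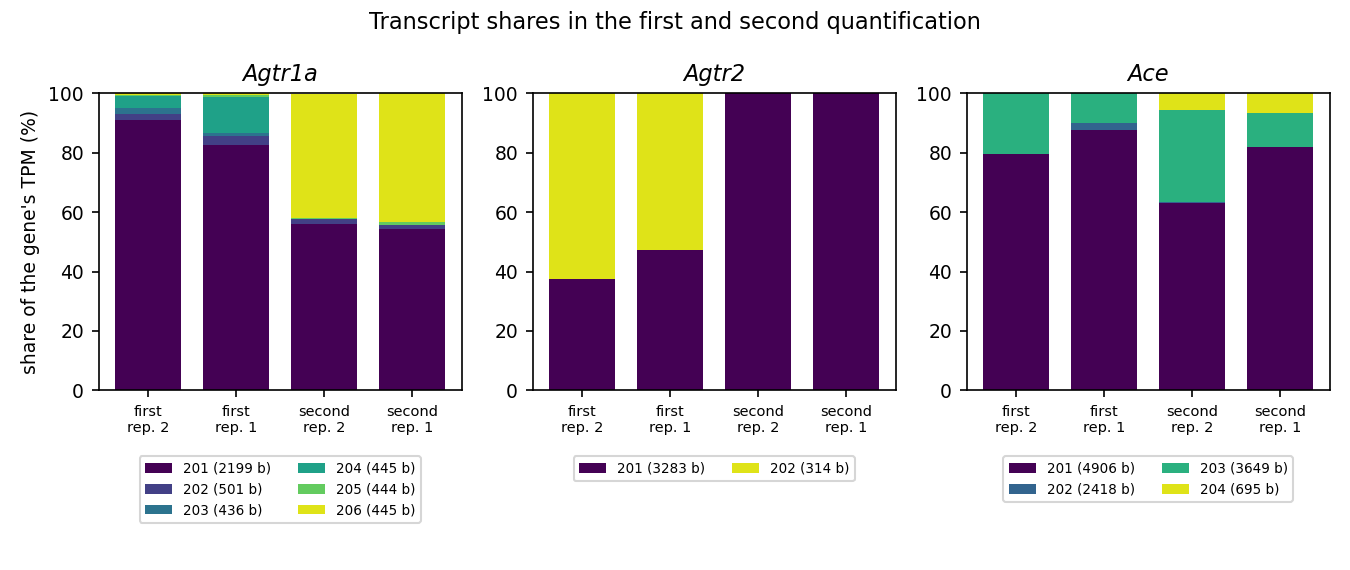
Share of a gene's TPM on each of its transcripts, in percent, for Agtr1a, Agtr2 and Ace, in the first quantification (from transcriptome alignments) and the second (from reads and an index), each with replicate 2 left of replicate 1; transcripts carry their number and length in bases. The second quantification puts more of Agtr1a on the 445-base transcript 206 and none of Agtr2 on the 314-base transcript 202.

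Mas1 (ENSMUSG00000068037.11, chr17:12841079-12868143, minus strand) encodes Mas, a receptor for angiotensin-(1-7). It had 7 counts in replicate 2 and 2 counts in replicate 1, or 0.20 TPM in replicate 2 against 0.03 TPM in replicate 1. These counts gave a ratio of 3.503 with an interval of 0.667 to 34.6, so no difference was detectable at this depth. The deposited posterior mean, a smoothed estimate, gave 0.54 TPM in replicate 2 against 0.38 TPM in replicate 1. The antisense gene Airn overlaps Mas1 and had 115 counts in replicate 2 and 80 in replicate 1, and the strand setting of the counting is not given in the sources used here. Atp6ap2 (ENSMUSG00000031007.2, chrX:12587801-12617049, plus strand) encodes the prorenin receptor, which is also an accessory protein of the vacuolar proton pump. Its fold was the nearest to 1 of the 9 genes, with 15.02 TPM in replicate 2 against 14.3 TPM in replicate 1 (14.7 ± 0.5 TPM, SD, n = 2) and a fold of 1.08 (interval 0.998 to 1.17).

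Set against the ligand and the enzymes within each library, the AT1 receptor genes were above Ren1 and Ace but not steadily above the ligand. Summed over both paralogs, AT1 stood at 54.5 TPM in replicate 2 against 72.8 TPM in replicate 1. That was 0.513 times Agt in replicate 2 and 2.28 times Agt in replicate 1, a mean log2 ratio of 0.11 ± 1.52 (SD, n = 2). In the second quantification the log2 ratio was −0.25 in replicate 2 and 1.81 in replicate 1. The order of receptor and ligand precursor thus turned between the libraries, and the mean is smaller than its SD. AT1 was 31.9 times Ren1 in replicate 2 and 28.2 times in replicate 1, a log2 ratio of 4.91 ± 0.12. It was 10.7 times Ace in replicate 2 and 17.5 times in replicate 1, a log2 ratio of 3.77 ± 0.50. Both of these ratios were larger than their spread between the libraries.

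Against the AT2 gene, AT1 was 2.46 times as high in replicate 2 and 3.13 times in replicate 1, a log2 ratio of 1.47 ± 0.25. The second quantification, which gave Agtr2 less and Agtr1a more, put this log2 ratio at 3.315 in replicate 2 and 3.265 in replicate 1, so its size depends on the table. Of the TPM of all 4 receptor genes in the first quantification, Agtr1a held 68.1% in replicate 2 and 72.2% in replicate 1, and Agtr2 held 28.8% in replicate 2 and 24.2% in replicate 1. The 4 receptor genes together were at 76.9 TPM in replicate 2 against 96.1 TPM in replicate 1, and Agt, Ren1, Ace and Enpep at 116.8 TPM in replicate 2 against 41.7 TPM in replicate 1. Receptors were thus below ligand and enzymes in replicate 2 and above them in replicate 1. Agt made up most of the sum of ligand and enzymes, at 62.2 times Ren1 in replicate 2 and 12.4 times in replicate 1.

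**Figure D4:**
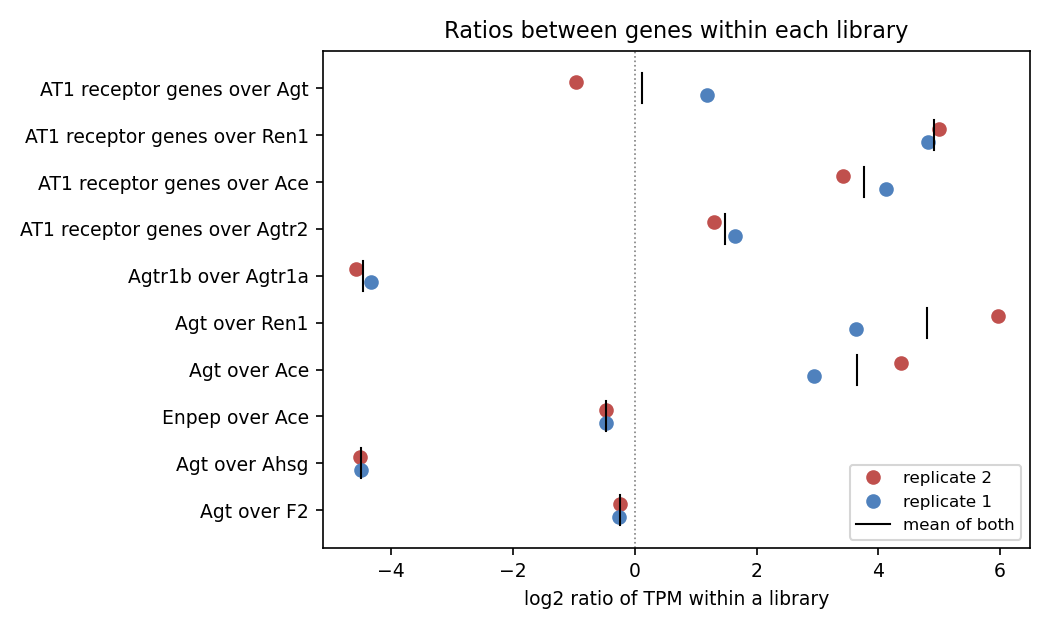
Log2 ratio of TPM between genes within a library, with replicate 2 in red, replicate 1 in blue and the mean of both as a bar. AT1 over Agt lies on both sides of 0 (−0.96 in replicate 2 and 1.19 in replicate 1), whereas Enpep over Ace and Agt over Ahsg are the same in both libraries to within 0.02.

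The genes were split evenly in direction between the libraries. Of the 8 with a mean of at least 10 counts, 4 were higher in replicate 2 and 4 lower, and 50.6% of the 18175 genes tested were higher. Agt was the 1 gene more than 2-fold apart, where 8.00% of all genes tested were. Of all genes tested, 6.74% were higher by more than 2-fold in replicate 2 and 1.26% lower. Agt and Agtr1b were the 2 genes more than 1.5-fold apart, against 16.6% of all genes tested. The median size of the log2 difference was 0.32 for these 8 genes and 0.17 for all genes tested. Mas1 did not pass the count minimum.

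The other genes of the pathway, in lists that hold none of the 9, were mostly present, but not all were close between the libraries. All 11 other angiotensin peptidases were at 1 TPM or more in both, as were 56.7% of nuclear protein-coding genes. In replicate 2, 5 were higher and 6 lower, where 50.6% of all genes tested were higher. None was past 2-fold, where 8.00% of all genes tested were. Their median fold was 0.979, beside 1.00 for all genes tested. Their highest was Lnpep, an aminopeptidase that binds angiotensin IV, at 33.5 TPM in replicate 2 against 37.2 TPM in replicate 1, which was 9.11 times Enpep in replicate 2 and 12.4 times in replicate 1. Next came Ctsa, cathepsin A, at 33.4 TPM in replicate 2 against 30.1 TPM in replicate 1. Dpp3, a dipeptidyl peptidase that degrades angiotensin peptides, was at 24.6 TPM in replicate 2 against 25.4 TPM in replicate 1. Anpep, named after its values were seen, had the fold furthest from 1 of these peptidases, 1.91 (interval 1.74 to 2.10).

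The list of other angiotensin-forming proteases held 6 genes, whose action on angiotensin was not measured here. In both libraries 4 of them reached 1 TPM, beside 56.7% of nuclear protein-coding genes. These 4 had a median fold of 1.24, and none was past 2-fold, where 8.00% of all genes tested were. The folds of Ctsd and Cma1 were above 1 beyond counting error, whereas the intervals of Cpa3 (0.9496 to 1.61) and Mcpt4 (0.855 to 1.82, named after its values were seen) included no difference. Ctsd, the lysosomal aspartyl protease cathepsin D, was at 200.2 TPM in replicate 2 against 190 TPM in replicate 1, or 117 times Ren1 in replicate 2 and 73.8 times in replicate 1. Cpa3 and Cma1, proteases of mast cell granules, were at 2.63 and 2.62 TPM in replicate 2 and at 2.16 and 1.90 TPM in replicate 1. Beside them, 3 of 5 mast cell markers were at 1 TPM or more in both, and the list summed to 9.74 TPM in replicate 2 against 9.42 TPM in replicate 1.

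Partners of the receptors were present in 9 of 10 cases, beside 56.7% of nuclear protein-coding genes. In replicate 2, 5 partners were higher and 4 lower, where 50.6% of all genes tested were higher. Gnai2, a G protein alpha subunit, led them at 96.9 TPM in replicate 2 against 97.2 TPM in replicate 1. Atp6ap1, another accessory protein of the proton pump, was at 41.5 TPM in replicate 2 against 43.0 TPM in replicate 1, and Mtus1, an AT2 receptor-interacting protein, at 32.5 TPM in replicate 2 against 29.6 TPM in replicate 1. The remaining one, Mrgprd, a receptor for alamandine named here because it was the single exception, had 0 counts in both libraries, where up to 3 counts could be missed. Among the partners, Arrb2, a beta-arrestin gene named after its values were seen, had the fold furthest from 1, 1.54 (interval 1.303 to 1.815). All 12 genes of AT1 signalling reached 1 TPM in both libraries, beside 56.7% of nuclear protein-coding genes. In replicate 2, 4 were higher and 8 lower, with a median fold of 0.959. None of the 12 was past 2-fold, where 8.00% of all genes tested were. Rgs2, which restrains Gq signalling, led them at 127 TPM in replicate 2 against 124 TPM in replicate 1, above Itpr1 and Itpr2, the inositol trisphosphate receptor genes. Itpr1 was at 33.3 TPM in replicate 2 against 33.8 TPM in replicate 1, and Itpr2 at 23.8 TPM in replicate 2 against 23.6 TPM in replicate 1.

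**Figure D5:**
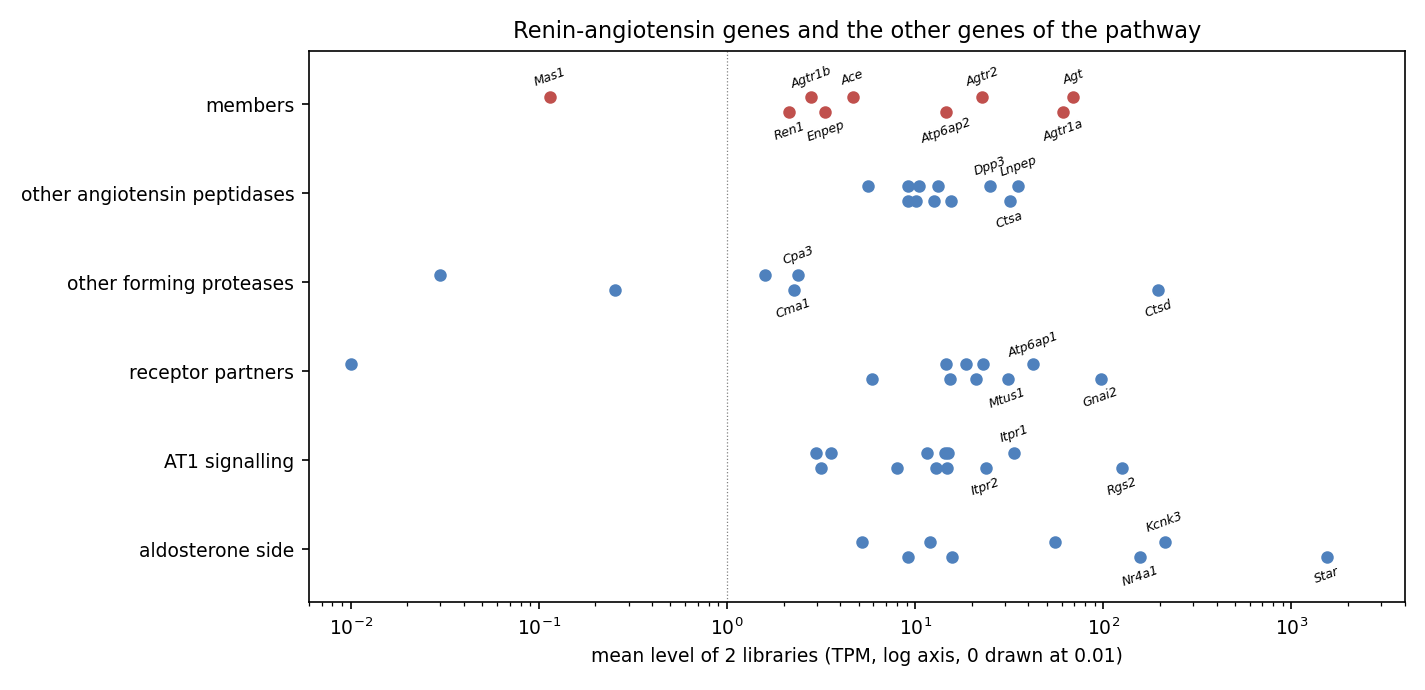
Mean TPM of the 2 libraries on a log axis, 1 point a gene, for the 9 renin-angiotensin genes in red and 5 lists of other pathway genes in blue; the 9 genes and the 3 highest of each other list carry names, and the dotted line marks 1 TPM. Ren1 lies at the low end of the detected genes, and Star, Rgs2 and Ctsd lie above Agt.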

How the data were processed

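Total RNA of adrenal gland was measured in 2 libraries of 1 group. Per the file headers and deposited notes, transcriptome alignments (mm10, GENCODE M21 with tRNAs, spike-ins and phiX) gave the authors' tables of genes and of transcripts, whose columns are named as RSEM names them. These deposited tables hold expected counts, not normalised, and TPM over all 81881 entries. The deposited percent columns give each transcript's share of its gene, and the deposited signal columns hold the bounds of the TPM credibility interval. The authors' second transcript table, made from the reads and an index, holds estimated counts and TPM under the column names kallisto uses. The tools behind them are not named in the sources used here. The reference is the C57BL/6J genome, and reads of CAST/EiJ alleles may have aligned less often.

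Members were taken by gene name, and levels compared between genes in TPM. Replicate folds came from expected counts after TMM scaling (edgeR 4.0.16, R 4.3.3), with a factor of 0.999 for replicate 2 over replicate 1. A mean of at least 10 counts was required for counts of genes. As an alternative, DESeq2 1.42.0 size factors gave a factor of 1, with all 9 folds inside their counting intervals. Intervals came from scipy 1.17.1, and the fold script was tested on simulated data. A count of 3 served as the floor. With 1 library a replicate no p-value was computed, and the spread measures these 2 libraries only, which may be technical. Named genes were the 9 members, the 3 highest of each pathway list and the 2 highest of a marker list. Other genes of the lists, such as Kdr, Umod and Slc34a1, were named after their values were seen. The members and lists were chosen with earlier results of these data known. Promoter sequences are from RefSeq (GRCm38.p6, 8 of 9 genes matched) and coding sequences from GENCODE M21 transcripts.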

Additional observations from a re-analysis of the deposited data

How the results depend on the processing

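AT1 over Agt, a mean log2 ratio of 0.11, was −0.083 with the main coding transcript of each receptor gene, an alternative added after seeing the data, and 0.78 in the second quantification (−0.25 in replicate 2 and 1.81 in replicate 1), and ran from −0.96 to 1.19 over single libraries. AT1 over Ren1 was 5.31 in the second quantification, 4.53 with posterior means, 4.36 with 1 TPM added, 5.26 in counts and 4.71 with the main transcripts (single libraries 4.82 to 4.995). AT1 over Ace was 2.48 in counts (3.41 to 4.13). AT1 over Agtr2 was 3.29 in the second quantification, 1.83 in counts and 2.53 with the main transcripts (1.30 to 1.65). Agtr1b over Agtr1a was −5.01 in the second quantification, −4.03 with 1 TPM added and −4.25 with the main transcripts (−4.59 to −4.33). Enpep over Ace was −0.50 in the second quantification, −0.45 with posterior means, −0.47 and −0.38 with 0.1 and 1 TPM added, and −0.90 in counts (−0.48 to −0.48). The causes were not tested, except that counts carry no length correction. Genes more than 2-fold apart numbered 2 with no count minimum (Agt and Mas1) and 2 at 1.5-fold (Agt and Agtr1b). The second quantification moved the levels of 8 of 9 genes, to between 0.620 (Agtr2) and 3.10 times (Mas1) those given, with Ren1 at 1.63, Ace at 1.54, Agtr1b at 1.49 and Enpep at 1.51 times. Levels over nuclear protein-coding genes were 2.94 to 3.02 times as high. Folds moved beyond counting error in 2 cases (Agt and Agtr1a), both with the library total. Depth limits Mas1, and no paired analysis was possible because there is 1 group.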

Other observations

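The genes listed for the aldosterone side were all at 1 TPM or more in both libraries, which differed in them in both directions. The list includes Star, which is also in the general cortex list, and a link of these levels to angiotensin II was not tested. Of the 8 listed, 2 were higher in replicate 2 and 6 lower, with a median fold of 0.827. Of all genes tested, 50.6% were higher in replicate 2 and 8.00% were past 2-fold. Of nuclear protein-coding genes, 56.7% were at 1 TPM or more in both libraries. Star, the carrier that brings cholesterol into mitochondria, was at 1460 TPM in replicate 2 against 1611 TPM in replicate 1. Kcnk3, a potassium channel of glomerulosa cells, was at 185 TPM in replicate 2 against 238 TPM in replicate 1. Nr4a1, a nuclear receptor known as an early response gene to angiotensin II, lay the other way, at 195.7 TPM in replicate 2 against 119.6 TPM in replicate 1. Its relative Nr4a2, named after its values were seen as the 1 gene of the list past 2-fold, was at 7.51 TPM in replicate 2 against 2.97 TPM in replicate 1, a fold of 2.59 (interval 2.29 to 2.94).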
